A study of Mus musculus with 24 samples.

Results

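The 9 genes described here mark the epithelium that lines the gut. They are the caudal homeobox genes Cdx1 and Cdx2, the forkhead genes Foxa1, Foxa2 and Foxa3, the nuclear receptor gene Hnf4a, the zinc finger gene Gata4, and the adhesion genes Epcam and Cdh1. They were taken by gene symbol, and each was found once in each of the 4 deposited tables, as 9 of the 26260 genes listed in the largest table. The RNA came from single guts of mouse embryos at embryonic day 12.5, on a mixed background of the strains C57BL/6, 129/Sv and C3H. There were 6 guts of Ret null homozygotes, 6 of Sema3d null homozygotes, 6 of Ret-Sema3d double null homozygotes and 6 of wildtype embryos, with 3 male and 3 female guts in each genotype. Ret encodes the receptor tyrosine kinase of GDNF-family ligands on enteric neural crest cells, and Sema3d a secreted guidance cue. The labels do not name the null alleles, and the whole gut was used, so that the epithelium is one of several tissues in each library.

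The gut tube consists of an endodermal epithelium, a surrounding mesenchyme that forms smooth muscle, and the enteric nervous system, which arises from neural crest cells that migrate in. The forkhead factors open closed chromatin in endoderm, Gata4 and Hnf4a act with them in gut and liver, and Cdx1 and Cdx2 give the epithelium its intestinal character. Cdh1 encodes E-cadherin, which joins epithelial cells at adherens junctions, and Epcam encodes a membrane protein of epithelial contacts. In the gut Ret is known for its role in the crest-derived cells.

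The members are spread over 8 chromosomes of the GRCm38 build. Cdx2 (ENSMUSG00000029646.3, chromosome 5, 147300805 to 147307270, minus strand) is the only member on its chromosome. Foxa2 (ENSMUSG00000037025.11, 148042877 to 148046969, minus strand) and Hnf4a (ENSMUSG00000017950.16, 163506808 to 163572910, plus strand) both lie on chromosome 2. The others placed here are Foxa1 (ENSMUSG00000035451.6, chromosome 12, 57540628 to 57546916, minus strand), Foxa3 (ENSMUSG00000040891.6, chromosome 7, 19013284 to 19023538, minus strand), Gata4 (ENSMUSG00000021944.15, chromosome 14, 63198922 to 63271692, minus strand), Epcam (ENSMUSG00000045394.8, chromosome 17, 87635979 to 87651129, plus strand) and Cdh1 (ENSMUSG00000000303.12, chromosome 8, 106603351 to 106670246, plus strand). Hnf4a overlaps the antisense gene Hnf4aos and, on its own strand, the snRNA gene Gm25881. Neither has values in the 4 deposited tables. The libraries were stranded, but the sources used here do not say whether the counting used strand. Reads of these genes may thus not be told apart, and the values of Hnf4a are uncertain to that extent.

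Promoter windows of 250 bases before to 50 after the start site were matched for 6 of the 9 members, in RefSeq annotation of GRCm38.p6. They are shown because most members are regulators whose binding motifs can be looked for at each other's starts. The letters searched, on both strands, were TGTTTAC for FOXA, TTTATG for CDX, CAAAGTCC for HNF4, AGATAA for GATA and CACCTG for the E-box that repressors of epithelial adhesion genes bind. Of all 32851 windows, 3.65% held the FOXA letters, 11.85% the CDX letters, 1.42% the HNF4 letters, 11.2% the GATA letters and 20.2% the E-box letters. Of the 9 windows of members, 2 held FOXA, 1 CDX, 0 HNF4, 2 GATA and 4 E-box letters, and no match overlapped another. A match describes these letters and not a bound site. The capitals below mark the matches in 4 of the windows, written 5′ to 3′ on the strand of the gene.
Cdx2, chr5:147307200-147307499, minus strand: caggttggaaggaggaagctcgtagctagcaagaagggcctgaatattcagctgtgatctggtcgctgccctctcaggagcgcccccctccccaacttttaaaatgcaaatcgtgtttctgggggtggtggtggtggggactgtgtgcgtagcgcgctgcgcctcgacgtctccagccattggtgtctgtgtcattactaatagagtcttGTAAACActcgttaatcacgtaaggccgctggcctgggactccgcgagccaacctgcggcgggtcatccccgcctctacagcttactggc
Foxa1, chr12:57546062-57546361, minus strand: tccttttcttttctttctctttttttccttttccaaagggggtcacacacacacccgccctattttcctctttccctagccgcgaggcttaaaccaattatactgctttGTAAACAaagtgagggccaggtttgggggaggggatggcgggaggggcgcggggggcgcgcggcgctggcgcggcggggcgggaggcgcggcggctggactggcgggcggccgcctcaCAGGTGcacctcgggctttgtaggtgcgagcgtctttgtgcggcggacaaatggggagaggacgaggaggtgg
Hnf4a, upstream start, chr2:163506607-163506906, plus strand: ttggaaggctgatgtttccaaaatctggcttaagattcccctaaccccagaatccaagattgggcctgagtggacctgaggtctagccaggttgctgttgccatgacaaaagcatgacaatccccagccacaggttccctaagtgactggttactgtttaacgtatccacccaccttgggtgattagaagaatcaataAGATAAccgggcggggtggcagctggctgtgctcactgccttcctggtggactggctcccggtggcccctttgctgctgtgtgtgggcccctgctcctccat
Epcam, chr17:87635729-87636028, plus strand: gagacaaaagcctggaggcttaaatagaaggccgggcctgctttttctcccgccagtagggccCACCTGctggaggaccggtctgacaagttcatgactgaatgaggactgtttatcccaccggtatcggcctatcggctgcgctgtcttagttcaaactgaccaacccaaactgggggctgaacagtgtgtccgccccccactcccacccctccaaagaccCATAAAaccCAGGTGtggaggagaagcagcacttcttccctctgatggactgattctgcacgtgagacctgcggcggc
The FOXA letters lay at -40 from the start site in the Cdx2 window and at -141 in the Foxa1 window, both on the opposite strand. The GATA letters lay at -52 in the upstream Hnf4a window, and the CDX letters at -28 in the Epcam window. Epcam held E-box letters at -187 and -19, and Foxa1 at -23. Hnf4a has a further window at a downstream start (chr2:163546905-163547204), which held E-box letters at -153.

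The tables hold the authors' model coefficients and tests and no value per gut, so levels are given as fitted levels. A fitted level is the normalised count that a fit gives to a genotype, averaged over the sexes. The depth of each library is unknown. As a check of the labels, the fitted level of Ret was 4.59 in Ret null guts against 1486 in wildtype guts, and 1.14 in double null guts against 1497 in wildtype guts, in the authors' deposited tables. That of Sema3d was 394 in Sema3d null guts against 823 in wildtype guts, or 47.8%, and 390 in double null guts against 801 in wildtype guts, or 48.6%, in the authors' deposited tables. Ret thus nearly vanished where the labels say that it is null, while gene-level RNA of Sema3d remained, so the level of Sema3d does not establish by itself that these guts are null homozygotes. Which exons the Sema3d allele lacks is not stated in the labels. Sema3d was also called lower in Ret null guts, at 660 against 794 in wildtype guts, or 83.1%. Its adjusted p was 0.000882 in the authors' likelihood ratio test. Ret was not called in Sema3d null guts, at 1347 against 1542 in wildtype guts. All 8 listed markers of enteric neurons and crest, Ret among them, were called lower in Ret null guts (median log2 change -5.39) and all 8 in double null guts (median -5.35), as the authors' deposited tables give them, beside 2.27% of all genes lower in the Ret null and 1.87% in the double null comparison.

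The identity genes spanned a wide range of levels, and each of them except Cdx1 varied by at most 0.31 on the log2 scale between genotypes. Levels were set against each other per kb of exon, in normalised counts from the fit of all 24 guts in the authors' deposited table. Epcam was the most abundant member, at 560 per kb in Ret null, 520 in Sema3d null, 541 in double null and 519 in wildtype guts. Cdh1 followed at 286 per kb in Ret null, 268 in Sema3d null, 298 in double null and 286 in wildtype guts. Of 17480 protein-coding genes, 95.3% had a lower wildtype level per kb than Epcam and 89.1% a lower one than Cdh1.

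Among the transcription factors, Foxa1 had 219 per kb in Ret null, 176 in Sema3d null, 208 in double null and 198 in wildtype guts. Gata4 stood close to it, at 190 per kb in Ret null, 196 in Sema3d null, 197 in double null and 182 in wildtype guts. Cdx2 had 131 per kb in Ret null, 135 in Sema3d null, 130 in double null and 125 in wildtype guts. Foxa1 was thus above Gata4 in each genotype except the Sema3d null, and both were above Cdx2.

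Foxa2 and Hnf4a were the next pair. Foxa2 had 67.1 per kb in Ret null, 64.3 in Sema3d null, 74.3 in double null and 71.2 in wildtype guts, and Hnf4a had 66.6 in Ret null, 67.4 in Sema3d null, 68.9 in double null and 66.5 in wildtype guts. Their order changes with the genotype, and no error of a level can be derived from the tables to separate such neighbours. Foxa3, the forkhead member best known from liver, had 18.2 per kb in Ret null, 19.9 in Sema3d null, 17.2 in double null and 16.4 in wildtype guts. Cdx1 (ENSMUSG00000024619.8, chromosome 18, 61018862 to 61036199, minus strand) had 0.952 per kb in Ret null, 1.65 in Sema3d null, 1.79 in double null and 1.35 in wildtype guts, and 15.4% of protein-coding genes lay below its wildtype level. The paralogues Cdx1 and Cdx2 thus differed by far more than any member differed between genotypes.

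**Figure D1:**
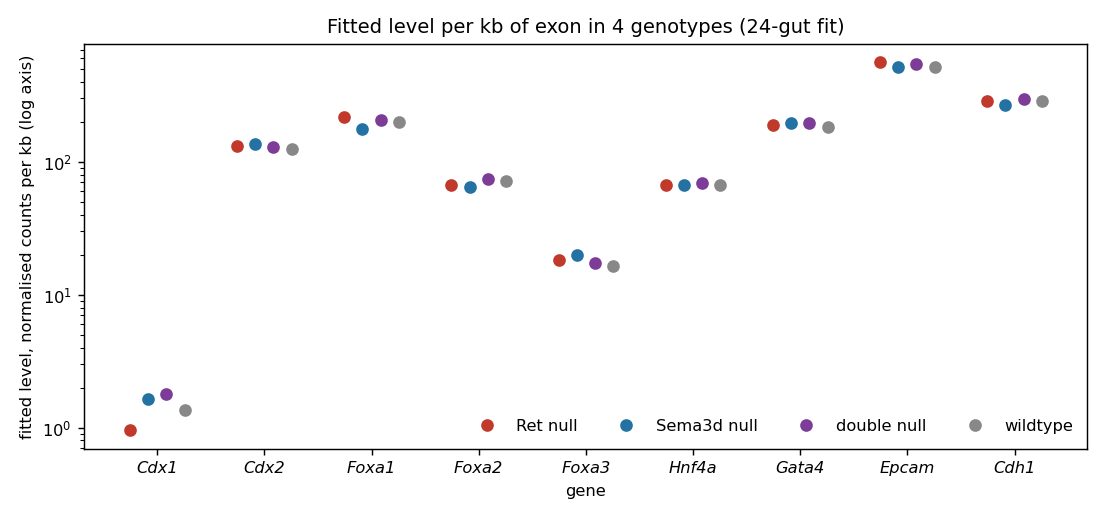
Fitted level of each member per kb of exon (log axis) in the 3 null genotypes and in wildtype guts, from the fit of all 24 guts. The 4 points of a gene lie close together except for Cdx1, whose level is between 0.952 and 1.79 per kb.

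The first comparison sets Ret null against wildtype guts. No identity gene was called: 0 of 9 passed the authors' likelihood ratio test in DESeq at an adjusted p below 0.05, and 0 of 9 had an unadjusted p below 0.05. Over all genes the table called 2.66%, of which higher calls made up 0.386% of genes and lower calls 2.27%, and 8.43% had an unadjusted p below 0.05. In bulk RNA fewer epithelial cells and less RNA per cell cannot be told apart. The log2 changes had a median of 0.07 over the 9 members, beside -0.000072 over all genes tested, and 6 of 9 were above 0.

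Foxa1 had the smallest p of the members in Ret null guts. Its fitted level was 711 in Ret null against 644 in wildtype guts, a log2 change of 0.14 ± 0.10 in the authors' deposited table (p = 0.144, adjusted p = 0.852). The value after ± is an error derived from the deposited deviances, and it also sets the 95% intervals given here. Epcam had 1199 in Ret null against 1111 in wildtype guts, which is 108% of wildtype with an interval of 94.2 to 124% (adjusted p = 0.944 in the authors' deposited table). The intervals of both genes include the wildtype level.

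Cdh1 and Hnf4a had nearly equal fitted levels in the groups of the Ret null table. Cdh1 had 1276 in Ret null against 1279 in wildtype guts, or 99.8% (interval 87.1 to 114%). Hnf4a had 313.4 in Ret null against 313.2 in wildtype guts, or 100.1% (interval 84.3 to 119%). For both genes the interval, and not the estimate, says how large a change these data allow. In the same table Gata4 was at 105% (90.8 to 122%), Cdx2 at 105% (82.9 to 132%) and Foxa2 at 94.4% (80.5 to 111%) of wildtype. Foxa3, at low level, was at 110% (82.5 to 148%), and Cdx1, with fitted levels of 1.64 in Ret null and 2.29 in wildtype guts, had an interval of 21.1 to 241%. Across the 7 members with a fitted level of at least 50, a log2 change between 0.31 (Foxa1) and 0.55 (Cdx2) would have been needed for a call.

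**Figure D2:**
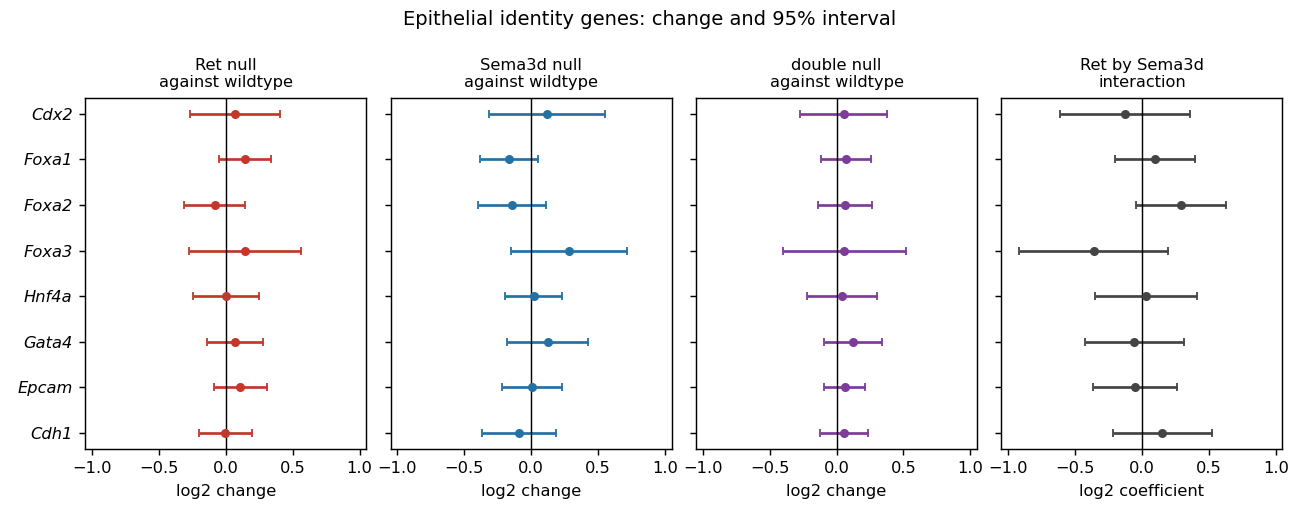
Log2 change of 8 members in each null genotype against wildtype guts, and the interaction coefficient, each with its derived 95% interval (bars). All intervals include 0. Cdx1 is left out because its intervals reach beyond the axis.

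The second comparison sets Sema3d null against wildtype guts. Again 0 of 9 members were called in the authors' deposited table, and 0 had an unadjusted p below 0.05, while the table called 0.0404% of all genes (0.0202% higher and 0.0202% lower) and 4.53% had an unadjusted p below 0.05. The median log2 change of the members was 0.02, against 0.01 over all genes tested.

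The forkhead genes lay on both sides of 0 in Sema3d null guts. Foxa1 had 594 in Sema3d null against 667 in wildtype guts, a log2 change of -0.17 ± 0.11 in the authors' deposited table (p = 0.130, adjusted p = 0.99962). Foxa2 had 155 in Sema3d null against 171 in wildtype guts, or -0.14 ± 0.13 (p = 0.266), and Foxa3 had 41.1 in Sema3d null against 33.8 in wildtype guts, or 0.28 ± 0.22 (p = 0.202), in the authors' deposited table. None of the 3 changes exceeds its error by enough to pass the test. Foxa1 was thus above its wildtype level in Ret null and below it in Sema3d null guts, in tables that share the wildtype guts, and the difference between the single nulls was not tested.

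The adhesion genes and the factors Hnf4a, Gata4 and Cdx2 had log2 changes between -0.09 and 0.12 in Sema3d null guts. Epcam had 1157 in Sema3d null against 1153 in wildtype guts, or 100.4% (interval 85.8 to 117%). Cdh1 had 1244 in Sema3d null against 1325 in wildtype guts, or 93.9% (77.7 to 114%). Hnf4a was at 101% (87.5 to 117%), Gata4 at 109% (88.2 to 134%) and Cdx2 at 109% (80.4 to 147%) of wildtype. Cdx1, at 2.91 in Sema3d null and 2.41 in wildtype guts, had an interval of 41.7 to 350.3%. The median error over genes fitted at 50 or more is larger here, 0.111 against 0.0776 in the Ret null table, and the calls are fewer. Hnf4a is an exception, with an error of 0.108 here against 0.126 in the Ret null table. Among the 7 members with a level of at least 50, a log2 change between 0.48 (Hnf4a) and 0.97 (Cdx2) would have been needed for a call.

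The third comparison sets double null against wildtype guts. All 9 members had a log2 change above 0, as did 51.5% of all genes tested, and 0 of 9 were called or had an unadjusted p below 0.05 in the authors' deposited table. That table called 2.1% of all genes (0.231% higher and 1.87% lower), with 6.71% at an unadjusted p below 0.05. The median log2 change was 0.06 over the members and 0.01 over all genes tested. The 9 directions are not independent, since the members mark the same tissue and share the same wildtype guts.

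In double null guts the largest log2 change among the 8 members other than Cdx1 was that of Gata4, with 759 in double null against 695 in wildtype guts. It corresponds to 0.13 ± 0.11 on the log2 scale in the authors' deposited table (p = 0.253, adjusted p = 1.0). Epcam had 1171 in double null against 1122 in wildtype guts, or 104% (interval 93.8 to 116%), the narrowest interval of any member in the 3 comparisons with wildtype. Cdh1 was at 104% (91.7 to 118%), Foxa1 at 105% (92.3 to 119%), Foxa2 at 105% (90.8 to 120%) and Hnf4a at 103% (86.0 to 124%) of wildtype. Cdx2 was at 104% (82.9 to 130.04%) and Foxa3 at 104% (75.7 to 143%). Cdx1 had 3.10 in double null and 2.34 in wildtype guts, with an interval of 47.4 to 371%. Among the 7 members fitted at 50 or more, a log2 change between 0.26 (Epcam) and 0.54 (Cdx2) would have been needed for a call, and one of 0.77 for Foxa3.

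The interaction of Ret and Sema3d, the question of the series, was tested by the authors over all 24 guts. The coefficient is the log2 change in double null guts beyond the sum of the changes of the single nulls. For this term 0 of 9 members were called in the authors' deposited table and 0 had an unadjusted p below 0.05, against 0.164% of all genes called (0.129% with a positive and 0.0343% with a negative coefficient) and 6.79% with an unadjusted p below 0.05. Foxa2 had the smallest p, with a coefficient of 0.29 ± 0.17 (p = 0.0882, adjusted p = 0.802) in the authors' deposited table. Its fitted levels in that fit were 159 in Ret null, 152 in Sema3d null, 176 in double null and 169 in wildtype guts, so that it was below wildtype in both single nulls and above it in the double null.

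Foxa3 was above wildtype in all 3 null genotypes, with 37.1 in Ret null, 40.6 in Sema3d null, 35.0 in double null and 33.5 in wildtype guts. Its coefficient was -0.36 ± 0.28 (p = 0.204) in the authors' deposited table. Foxa1 had 728 in Ret null, 586 in Sema3d null, 692 in double null and 659 in wildtype guts and a coefficient of 0.10 ± 0.15 (p = 0.526) in the authors' deposited table. Among the 8 members other than Cdx1, Foxa1 had the widest spread between its highest and lowest genotype, 0.31 on the log2 scale, and Hnf4a the narrowest, 0.05. The remaining coefficients were 0.15 ± 0.19 for Cdh1, -0.13 ± 0.25 for Cdx2, -0.06 ± 0.19 for Gata4, -0.05 ± 0.16 for Epcam, 0.03 ± 0.19 for Hnf4a and 0.62 ± 1.04 for Cdx1 in the authors' deposited table. An interaction of 0.60 on the log2 scale would have been needed for a call on Foxa1, the member with the smallest such bound.

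Double null guts can also be set against each single null through the fit of all 24 guts, without a test. For the 8 members other than Cdx1 the log2 difference of double null and Ret null guts lay between -0.08 (Foxa3) and 0.15 (Foxa2), and Epcam and Cdh1 had -0.05 and 0.06. The difference of double null and Sema3d null guts lay between -0.22 (Foxa3) and 0.24 (Foxa1). These differences are descriptions only.

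Several identity genes had larger errors than most genes of like level, which widens the intervals above. Each member was set beside the protein-coding genes whose wildtype level was within 1.25-fold of its own. In the Ret null table the derived error of Cdx2 was 0.172 against a median of 0.0857 over 1543 such genes, and 97.5% of them had a smaller error. For Epcam it was 0.10 against 0.0552, and for Cdh1 0.10 against 0.0536, with 97.4 and 97.5% of genes of like level below them. The adhesion genes are thus abundant, and their errors exceed those of most genes as abundant.

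The same held for most members in the double null table, which shares the wildtype guts. There 6 of the 7 members with a level of at least 50 had errors above those of 90% of genes of like level, and 6 of 7 did so in the Ret null comparison, while 3 of 7 did so for Sema3d null guts. Cdx2 and Gata4 were above 96% of genes of like level in each of these 3 tables. Foxa2 was not, with an error 1.09 times the median of genes of like level for Ret null, 0.994 times for Sema3d null and 0.966 times for double null guts. Values per gut would be needed to see which guts differ, and why these errors are large was not tested.

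**Figure D3:**
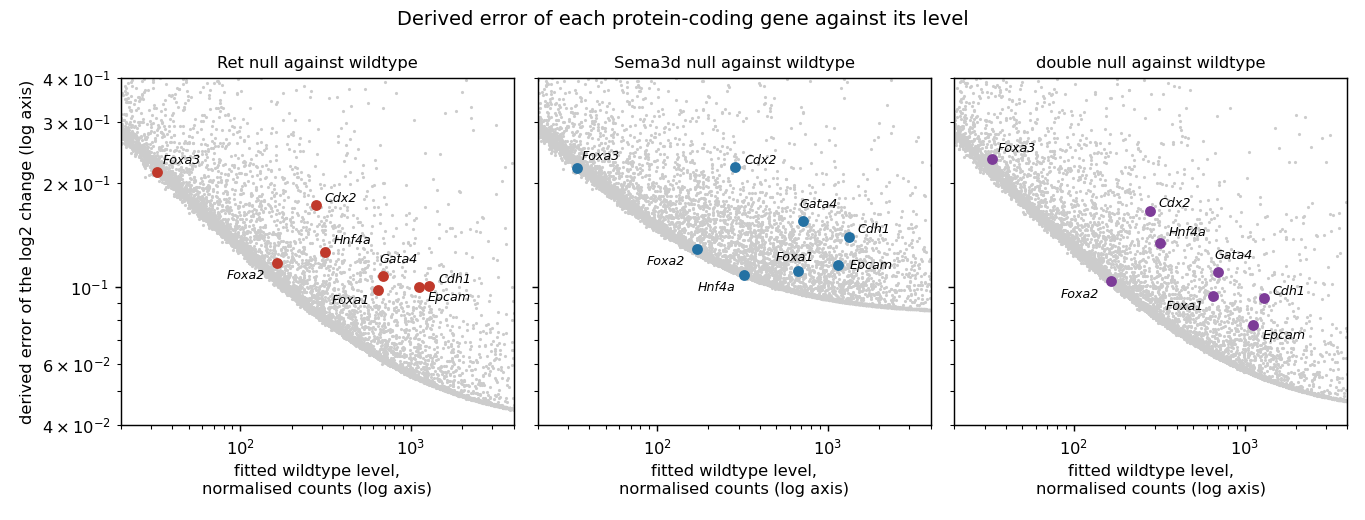
Derived error of the log2 change against the fitted wildtype level (both log axes) for protein-coding genes (grey) and 8 members (coloured) in the 3 comparisons with wildtype. The errors of Foxa2 and Foxa3 are close to the median of genes of like level, while Cdx2, Gata4 and Cdh1 lie above most of them.

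The sex term of the fits is given as a description, with no test. Male guts had higher fitted levels than female guts for 8 of 9 members in the 24-gut fit, by 0.17 on the log2 scale for Epcam, 0.18 for Hnf4a, Foxa1 and Cdx2, 0.16 for Foxa3, 0.10 for Cdh1, 0.09 for Foxa2 and 0.13 for Cdx1 in the authors' deposited table. Gata4 had -0.01. Over all genes fitted at 50 or more the median sex coefficient was 0.00396, and 52.8% were above 0. For Epcam, for example, the coefficient splits the wildtype level into 1206 in males and 1072 in females. The fit has a single sex coefficient per gene for all genotypes. Levels by sex given for the wildtype thus do not describe wildtype guts alone.

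Markers of other tissues of the gut wall had sex coefficients above 0 as well. In the fit of all 24 guts all 8 mesothelium markers did, with a median of 0.09. The sex coefficients, shared by all genotypes, put their summed wildtype level at 6085 in males and 5596 in females. Of the 8 markers of mesenchyme and smooth muscle 5 had coefficients above 0, with a median of 0.04. Their summed wildtype level was put at 37500 in males and 35892 in females in the same way. Among the latter the smooth muscle genes Myh11, a myosin heavy chain, and Acta2, an actin, had larger coefficients than the 8 members other than Cdx1. They had 0.39 and 0.31 in the fit of all 24 guts in the authors' deposited table. In the fit with double null guts they had 0.98 and 0.70, and Cdx1, at low level, had 0.83, in the authors' deposited table. Myh11 and Acta2 were picked after their values were seen. Of the 8 markers of neurons and crest 7 were above 0 in the fit of all 24 guts, with a median of 0.07. The part of these tissues in the sex coefficients of the members was not tested.

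The authors deposited no test of sex, and the coefficients differed between the tables. In the fit of double null and wildtype guts the male minus female difference was 0.34 for Cdx2 and Hnf4a, 0.26 for Foxa1 and Epcam and 0.23 for Cdh1 in the authors' deposited table, and each exceeded that of 98.9% or more of genes of like level. In the fit of Ret null and wildtype guts it was 0.15 for Cdx2, 0.13 for Hnf4a and Epcam, 0.19 for Foxa1 and 0.08 for Cdh1 in the authors' deposited table. In the fit of Sema3d null and wildtype guts it was 0.24 for Cdx2, 0.06 for Hnf4a, 0.13 for Foxa1, 0.17 for Epcam and 0.10 for Cdh1 in the authors' deposited table. The direction was the same in each fit for these 5 genes, but the fits share the wildtype guts, so they are not separate observations.

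Foxa2, Foxa3 and Gata4 had sex terms that changed sign between fits, were near 0 in one of them, or were below 0. Foxa3 had -0.03 in the fit with Ret null, 0.06 in that with Sema3d null and 0.25 in that with double null guts, as the authors' deposited tables list them. Foxa2 had -0.05 in the fit with Ret null, 0.10 in that with Sema3d null and 0.000068 in that with double null guts, all from the authors' deposited tables. Gata4 had -0.09 in the fit with Ret null, -0.18 in that with Sema3d null and -0.11 in that with double null guts, all from the authors' deposited tables. Its fitted male levels were the lower ones in these 3 fits, but the fits share the wildtype guts and are not separate observations. Between 2.22 and 5.89% of genes of like level had lower values than Gata4 in these 3 fits, but 37.7% did in the fit of all 24 guts, where Gata4 had -0.01. No call on sex is made, as the error of the sex term cannot be derived from these tables.

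**Figure D4:**
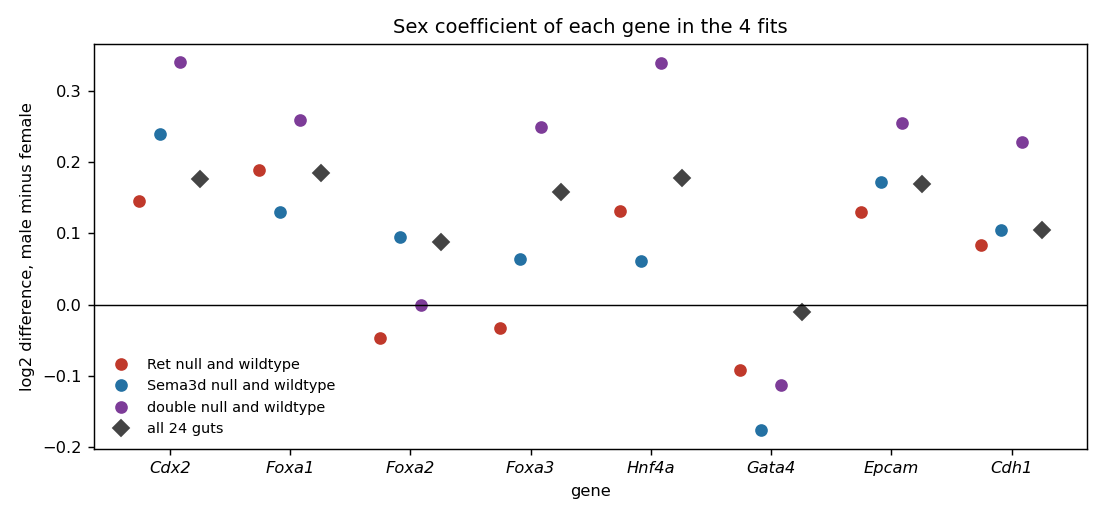
Log2 difference of male minus female guts for 8 members in the fit of each null genotype with wildtype guts, and in the fit of all 24 guts. Cdx2, Foxa1, Hnf4a, Epcam and Cdh1 are above 0 in all 4 fits, and Gata4 is below 0 in all 4, at -0.01 in the fit of all 24 guts. The fits share the wildtype guts, so they are not separate observations.

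Other genes of the gut epithelium were described from 4 lists, of transcription factors, of junction, keratin and splicing genes, of enterocyte products and of signals. Of their 60 measured genes, 0 were called in Ret null guts, 0 in Sema3d null guts and 0 for the interaction, where 2.66%, 0.0404% and 0.164% of all genes were called. At an unadjusted p below 0.05 there were 3 of the 60 (5.0%, against 8.43% of all genes) in Ret null guts, 1 (1.67%, against 4.53%) in Sema3d null guts and 2 (3.33%, against 6.79%) for the interaction. The gene Krt19 stands also in the mesothelium list below. In double null guts 1 of 60 was called, lower, beside 1.87% of all genes, and 4 (6.67%, against 6.71% of all genes) had an unadjusted p below 0.05. The gene called was Onecut2, a homeobox factor of endoderm and also of neurons, with 501 in double null against 694 in wildtype guts, or -0.47 ± 0.09 (adjusted p = 9.64e-06) in the authors' deposited table. In Ret null guts Onecut2 had -0.36 ± 0.14 (adjusted p = 0.212) and in Sema3d null guts -0.15 ± 0.15 (adjusted p = 0.99962) in the authors' deposited tables.

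The list of junction and keratin genes was the largest, with 26 genes. Its median log2 change was 0.08 in Ret null, 0.11 in Sema3d null and 0.08 in double null guts, above those of all genes tested in each table, with 0 of 26 called in each. Krt7, a simple epithelial keratin, had the smallest p there in Ret null guts, with 0.20 ± 0.08 (adjusted p = 0.214), and in double null guts, with 0.16 ± 0.07 (adjusted p = 0.448), in the authors' deposited tables. Of these 26 genes 25 had a positive sex coefficient in the fit of all 24 guts, with a median of 0.12. Among the other transcription factors Sox9, a factor of epithelial progenitors and of mesenchyme, had 0.23 ± 0.10 in Sema3d null guts (p = 0.0164, adjusted p = 0.962) in the authors' deposited table. Of the epithelial signals Bmp7 had -0.20 ± 0.07 in double null guts (p = 0.00476, adjusted p = 0.175) in the authors' deposited table.

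Foxa1, Foxa2, Foxa3, Hnf4a and Gata4 are also made in other organs of endodermal origin, so liver markers were summed. The 13 liver markers had a summed fitted level of 1528 in Ret null, 4644 in Sema3d null, 4652 in double null and 2912 in wildtype guts of the fit of all 24 guts. The sex coefficients, shared by all genotypes in that fit, put the wildtype sum at 2197 in males and 3628 in females. The summed liver level thus varied widely by genotype and by the shared sex term, and Afp and Alb carried much of this range. Afp had 281 in Ret null, 1718.5 in Sema3d null, 2002.5 in double null and 929 in wildtype guts. Alb had 15.2 in Ret null, 758 in Sema3d null, 824 in double null and 336 in wildtype guts. In the 12-gut fit Alb had 1686.5 in Sema3d null guts. The median log2 change of the 13 markers in the 12-gut fits was -1.53 in Ret null, 0.65 in Sema3d null and 0.11 in double null guts. Of the 13 markers 0 were called in any table, and 5 of the 13 fits did not converge. In Ret null guts 3 of the 13 had a fitted level below 1, and in each other genotype 1 did. Hnf4a had fitted levels of 322 in Ret null, 326 in Sema3d null, 333 in double null and 321 in wildtype guts, while the liver sum of Ret null guts was 52.5% and that of double null guts 160% of wildtype. The shared sex coefficient put Hnf4a higher in males, at 341 against 301 in females at the wildtype level, while the liver sum was lower in males. The part of liver RNA in the levels of the members was not tested.

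Gata4 is also transcribed in mesothelium, the outer lining of the gut. The 8 mesothelium markers had a summed fitted level of 6714 in Ret null, 6377 in Sema3d null, 6308 in double null and 5841 in wildtype guts, with 0 of 8 below 1 in any genotype. Gata4 had 741 in Ret null, 764 in Sema3d null, 769 in double null and 709 in wildtype guts. Of the 8 markers 1 was higher in Ret null guts, where 0.386% of all genes were higher, and 0 were called in the other tables. It was Aldh1a2, a retinoic acid synthesis enzyme, with a log2 change of 0.28 ± 0.08 (adjusted p = 0.0282) in the authors' deposited table. The part of mesothelial RNA in the level of Gata4 was not tested. Of the 10 listed markers of pancreas, lung and stomach 7 were measured, and 0 of the 7 were called in any table. The lung markers Nkx2-1 and Sftpc were not among those measured. Of the 8 markers of kidney and gonad 1 was lower in double null guts, where 1.87% of all genes were lower. It was Calb1, with a fitted level of 2.76 in double null against 9.49 in wildtype guts (adjusted p = 0.0392 in the authors' deposited table). Of the 8 markers of gut mesenchyme and smooth muscle 0 were called in any table.

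**Figure D5:**
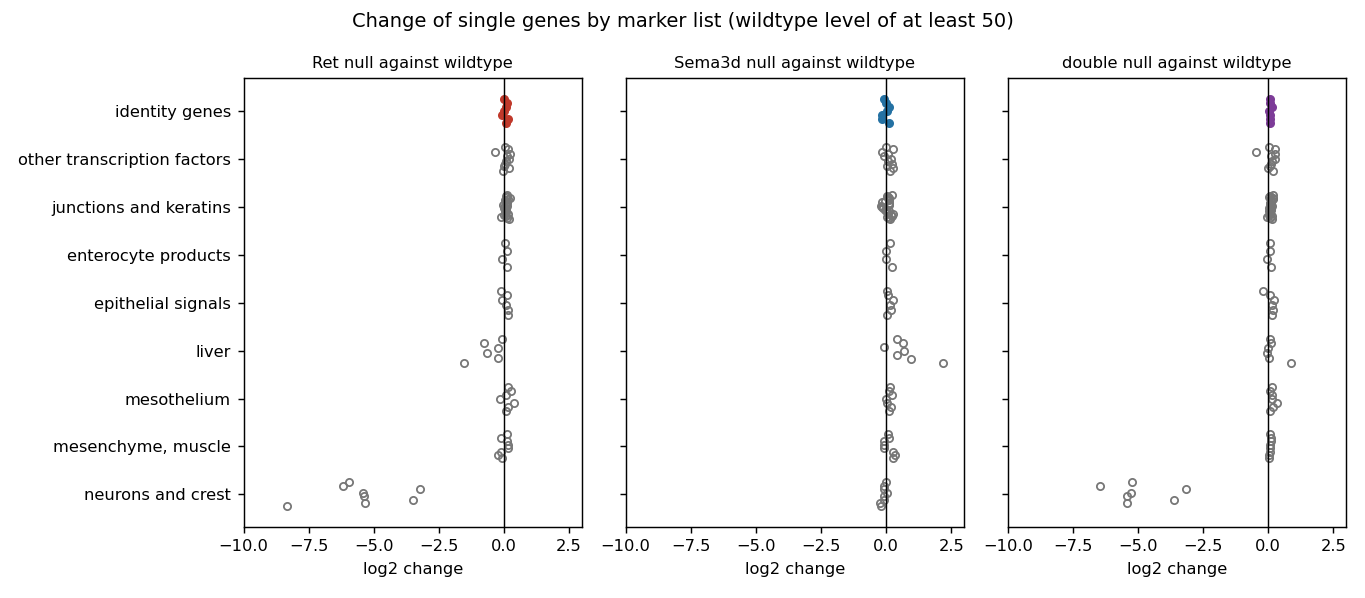
Log2 change of single genes with a wildtype level of at least 50 and a converged fit, by marker list, in each null genotype against wildtype guts. The identity genes (coloured) lie close to 0 in each comparison, while the 8 markers of neurons and crest lie far below 0 in Ret null and double null guts (Ret in double null guts lies beyond the axis) and the liver markers shown lie at or below 0 in Ret null and mostly above 0 in Sema3d null guts.

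The genes nearest to the members in their profile over the fit of all 24 guts were looked up by root mean square distance. The profile was the log2 change in each null genotype and the sex coefficient, 4 values, averaged over the 7 members with a level of at least 50. That mean was 0.04 in Ret null, -0.02 in Sema3d null and 0.07 in double null guts, and 0.13 for male minus female. Of 12171 other genes the 5 nearest were Fam189a1, Col14a1, Sptssa, Btbd3 and Mbnl2, at distances of 0.0183 to 0.0220. Among the members themselves Hnf4a was nearest to the mean, with 93 other genes closer, followed by Epcam with 114 and Cdh1 with 150. Gata4 was the farthest, with 4767 other genes closer, so many other genes were as near to the mean as the members were.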

How the data were processed

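Poly-A RNA of 24 guts was sequenced as a stranded library per gut, per the labels' protocols. Per the submitters' processing notes, DESeq 1.24.0, RSEM 1.2.31, STAR, Trimmomatic 0.36 and FastQC 0.11.5 were used with GRCm38, with no roles given. The authors deposited coefficients of the intercept, sex and genotype, read here as log2 values, and, as a score of fit, the deviances of the full model and of one that lacks the tested term, per the file headers. They also deposited a p-value and an adjusted p-value per gene. The other coefficients the authors deposited, those of the interaction table, were read in the same way, a few lying beyond any bounded fit. Each null genotype has a table of its own with wildtype over 12 guts, and one further table fits all 24. The Ret null table exchanges the headers of symbol and gene type, which were read by content.

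Recomputing p from the deviance difference (chi-square, 1 degree of freedom) gave the deposited p-values within 4.91e-09. The error of a coefficient was derived as its size over the square root of that difference, and 95% intervals follow from it. Both steps were tested on simulated data. The headers name no base of the logarithm. Base 2 was used because fitted wildtype levels then sum to 11.6 to 12.0 mega-counts per table, against 435 to 458 with the natural base. Libraries have no counts here, so no count test was run. Calls use an adjusted p below 0.05 over the whole table. Exon lengths came from GENCODE M21, matched for 17480 of 17550 protein-coding genes of the 24-gut table. Labels do not say that guts came from separate litters, so p-values measure the spread between these guts. Python 3.11.15, pandas 2.3.3 and scipy 1.17.1 were used. All 9 members were named, and of the marker lists the genes called or up to 3 with the smallest p per list, though some of these are not reported here. The members and lists were chosen with earlier results of these data known.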

Additional observations from a re-analysis of the deposited data

How the results depend on the processing

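The count of members called stayed at 0 in each of the 4 tables when p was adjusted only over genes fitted at 50 or more, and when the threshold was 0.1. It also did when deviance differences were scaled to the chi-square median, and when coefficients were recentred on the median gene. An adjusted p cannot be below its unadjusted p, and the smallest unadjusted p in the authors' likelihood ratio tests was 0.0882 (Foxa2, interaction). Adjusting over fewer genes could thus give no call, and the threshold of 0.1 only one for Foxa2. Cdx1 and Foxa3, fitted below 50, were outside the first setting. The counts of the 4 epithelial lists did not move by over 1.5 times under these settings either. Recentring turned 1 direction, that of Hnf4a in Ret null guts, to -0.00697. Coefficients of the 24-gut fit differed from those of the 12-gut fits by less than the derived error for all 27 member changes. Both kinds of fit use the same guts, so this closeness follows from the design. Sex coefficients of the 12-gut fits, a comparison chosen after seeing the data, moved by more than the error of the genotype term in 6 of 27 cases, among them Hnf4a, at 0.06 with Sema3d null and 0.34 with double null guts, and Foxa2, at -0.05 with Ret null guts. With the natural logarithm the fitted wildtype levels of all 9 members would be higher, and percent changes larger. No paired analysis was possible because the tables hold no values per library, and leaving out single guts could not be run for the same reason. Low levels limit Cdx1 and Foxa3, and the depth of the libraries is unknown.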
